A study of Mus musculus with 10 samples.

Results

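The 38 genes described here encode the machinery of mitosis, from the kinase that starts it to the proteins that pinch the daughter cells apart. They were taken by symbol from a list of mitosis genes, and all 38 were found among the 27919 gene symbols of the expression table. The list was chosen with earlier results of these data known. Polyadenylated RNA was sequenced from tumors of B16F10, a mouse melanoma line. 4 tumors overexpressed Ly86, the gene of MD-1, the secreted partner of the receptor RP105 of B cells and myeloid cells, and 3 tumors carried the vector. Every mouse in both groups had received antibodies to PD-1 and CTLA4, inhibitory receptors of T cells, in 4 rounds, so that no group without this treatment was compared here. The mouse strain and age, the promoter of the construct and whether the cells were 1 clone are not given in the sources used here. 2 pieces were sequenced of Ly86 tumor 1 and of Vector tumors 1 and 2, giving 10 libraries in all. Their log2 values were averaged, and the tumor was the replicate. The labels do not say that each tumor came from another mouse, so p-values here reflect only how far these tumors spread, which may be in part technical.

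Values are log2(TPM + 1), and TPM counts transcripts per 1000000, corrected for their length. TPM keeps no record of depth, so no counting interval is given. Ly86 mRNA stood at 49.2 to 81.9 TPM in the 5 libraries of Ly86 tumors and at 6.24 to 80.9 TPM in the 5 libraries of Vector tumors, where only the first piece of Vector tumor 2 reached the Ly86 range. The 19 pigment cell lineage genes checked were above 0 in every library, with a mean between 7.72 and 8.18 log2(TPM + 1) per tumor.

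Entry into mitosis is driven by the kinase Cdk1 bound to cyclins A and B. The spindle checkpoint holds cells back until every kinetochore is attached to microtubules, and the anaphase-promoting complex then marks securin and the cyclins for destruction, which frees separase to cut the rings of cohesin between sister chromatids. Most of these genes are transcribed together late in the cell cycle. A repressor complex called DREAM holds many of them off in resting cells by way of a promoter element named CHR, and later B-Myb and FoxM1 turn them on, with NF-Y bound at CCAAT boxes nearby. Their mRNAs are therefore widely used as marks of dividing cells in tumors.

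All but 1 of the 38 mitosis genes averaged lower in the Ly86 tumors than in the Vector tumors, by small amounts. Per tumor, their mean came to 5.74 ± 0.16 log2(TPM + 1) with Ly86 (SD, n = 4) and to 5.99 ± 0.24 with the vector (SD, n = 3). The single differences, Ly86 minus Vector on the log2 scale, ran from -0.49 for Incenp to 0.23 for Pttg1, the 1 gene on the higher side. Their median was -0.27, a ratio of 0.83 on the TPM + 1 scale, beside a median of -0.037 over the 14556 genes with a mean of at least 1 TPM. All 38 members passed that filter. Of the tested genes 56.2% averaged lower in the Ly86 tumors, against 37 of 38 here. The members are known to be transcribed together and are not independent of each other.

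No single difference passed the test. In limma, 0 of 38 members and 0% of all tested genes had an adjusted p under 0.05 (Benjamini-Hochberg over the 14556 genes), and the members' adjusted p ran from 0.437 to 0.970. At an unadjusted p under 0.05 limma listed 7 members, all lower (Incenp, Aurkb, Cdc20, Kif20a, Bub1, Ccnb1 and Mki67), where limma listed 4.97% of all tested genes as lower, 5.78% as higher and 10.8% in either direction. In 5 members every Ly86 tumor lay below every Vector tumor (Incenp, Aurkb, Cdc20, Kif20a and Bub1), an order found in 5.75% of all tested genes. The opposite order was found in 0 members and in 4.71% of all tested genes. Exact two-sided permutation p was 0.0286 for Incenp and Cdc20, 0.0571 for Aurkb, Kif20a and Bub1, and 0.0857 to 0.886 for the remaining members. The mean difference of -0.25 depended on single tumors of both groups. It came to -0.15 with Vector tumor 1 left out, to -0.39 with Vector tumor 2 left out and to -0.18 with Ly86 tumor 2 left out. It came to -0.13 with the first and -0.37 with the second pieces alone of the divided tumors. The 7 members listed as lower at an unadjusted p under 0.05 became 4 without Ly86 tumor 2, where limma listed 4.35% of all tested genes as lower. Leaving out Vector tumor 1, 2 or 3 in turn gave 3, 22 and 2 members, and the shares of all tested genes moved along, to 2.65%, 9.23% and 1.72%. With the first piece of Vector tumor 2 left out, 19 members and 9.47% of all tested genes were listed as lower. First pieces alone of the divided tumors gave 1 member (1.32% of all tested genes) and second pieces alone 23 (12%). The 5 members with every Ly86 tumor below every Vector tumor became 8 without Ly86 tumor 1 (10.6% of all tested genes) and 9 without Ly86 tumor 4 (7.63%). They became 29 when all of Vector tumor 2 was dropped (19.2%) and 15 when its first piece was (10.4%). With first and second pieces alone of the divided tumors they became 1 and 15 (1.95% and 12.5%). Over the 10 single libraries they became 0 (0.9%), so the separation held only for tumor averages. Without Ly86 tumor 1, or without Vector tumor 3, Pttg1 had the opposite order. With limma's array weights 15 members passed the adjusted threshold, all lower, as did 8.29% of all tested genes on that side. That fit stopped before it converged, and it weighted Vector tumor 3 at 22.8 and each of the others below 1.

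**Figure D1:**
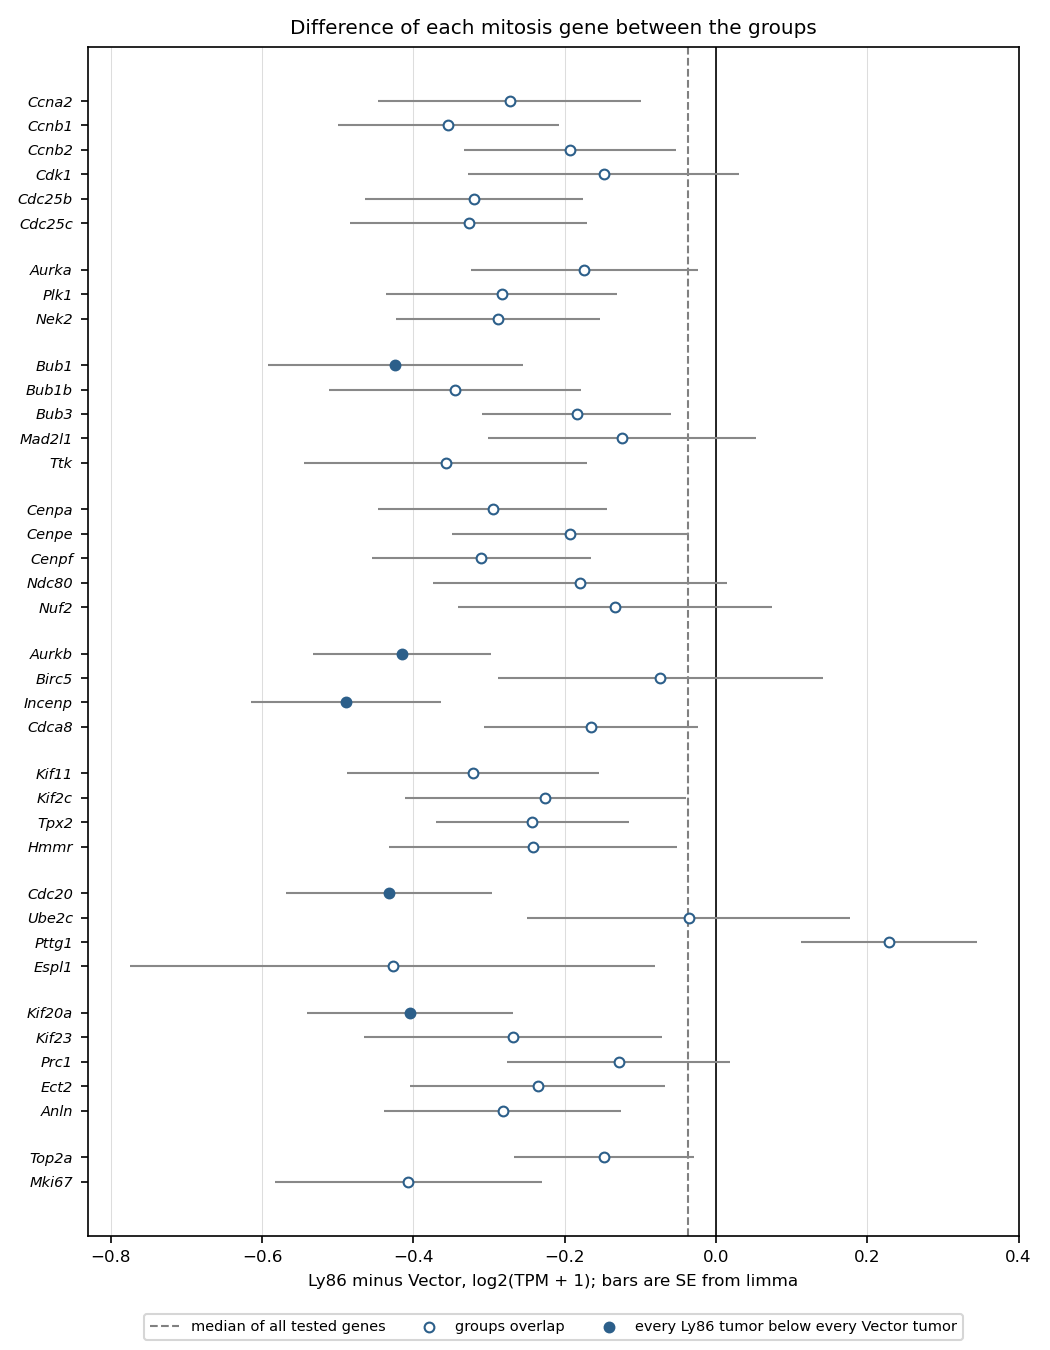
Difference of each of the 38 mitosis genes between 4 Ly86 and 3 Vector tumors, in log2(TPM + 1), grouped by role, with bars for the SE from limma. Of these genes 37 sit left of 0, most of them also left of the dashed median of all tested genes, and filled circles mark the 5 genes whose groups do not overlap.

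The promoters of these genes share sequence that was not used to choose them. RefSeq promoter windows of the GRCm38.p6 build, running from 250 bases before to 50 bases after the start of transcription, were found for 32 of the 38 genes, taking the first listed window of a gene. Ccna2, Cdc25c, Aurkb, Incenp, Tpx2 and Kif20a were not matched. The letters TTTGAA, which form the core of the CHR element, were searched on both strands, where the other strand reads TTCAAA. They were present in 23 of 32 member windows (71.9%) and in 18.1% of the windows of all 27025 genes. Between 100 bases before and 50 bases after the start they were present in 22 of 32 members (68.8%), in 8.08% of all genes and in 4.62% of the tested genes with a window. A CCAAT box, CCAAT or ATTGG, was present in 25 of 32 members (78.1%) and 37.9% of all genes, and both motifs were present in 20 of 32 members (62.5%) and 7.12% of all genes. A match is a description of the letters and does not show that a factor was bound.

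The stretches printed here belong to the 5 members of smallest p with a CHR match in the 120 bases before the start, outside annotated exons of GENCODE vM21. Each is read 5′ to 3′ on the strand of the gene, with coordinates on GRCm38.p6, and capitals mark TTTGAA and CCAAT on either strand.
Cdc20, chr4:118437353-118437463, minus strand: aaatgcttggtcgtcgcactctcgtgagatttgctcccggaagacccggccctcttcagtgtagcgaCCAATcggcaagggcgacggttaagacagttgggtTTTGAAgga
Mki67, chr7:135716380-135716499, minus strand: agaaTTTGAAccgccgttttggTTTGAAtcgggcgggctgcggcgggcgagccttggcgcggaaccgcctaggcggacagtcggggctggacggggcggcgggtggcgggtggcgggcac
Kif11, chr19:37376262-37376381, plus strand: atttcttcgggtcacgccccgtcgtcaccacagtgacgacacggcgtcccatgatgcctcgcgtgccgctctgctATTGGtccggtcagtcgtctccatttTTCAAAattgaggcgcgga
Ect2, chr3:27153879-27153998, minus strand: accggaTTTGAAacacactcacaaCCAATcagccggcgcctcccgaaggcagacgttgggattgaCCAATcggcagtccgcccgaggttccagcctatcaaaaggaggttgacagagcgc
Top2a, chr11:99024190-99024309, minus strand: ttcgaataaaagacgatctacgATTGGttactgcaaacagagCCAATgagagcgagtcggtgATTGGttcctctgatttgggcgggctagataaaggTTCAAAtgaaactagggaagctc
In the printed stretches of Cdc20, Kif11 and Top2a the CHR letters begin 18, 19 and 23 bases before the start. These stretches have 1, 1 and 3 CCAAT boxes upstream of the match. Top2a has a further CHR match 179 bases before the start, outside the stretch. Mki67 has 2 matches, which begin 116 and 98 bases before the start, and no CCAAT box in the printed stretch. In its printed stretch Ect2 has a match 114 bases before the start, ahead of 2 CCAAT boxes. A further CHR match and a further CCAAT box of Ect2 lie after the start. The median difference between the tumor groups was -0.24 for the 23 members with a CHR match in the window and -0.19 for the 9 without one. Among all 10672 tested genes with a window, the 165 with both motifs between 100 bases before and 50 after the start, 18 of them members, had a median difference of -0.15, against -0.039 for the others. Within the members the medians were -0.24 for those 18 and -0.25 for the other 14. These medians were not tested.

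**Figure D2:**
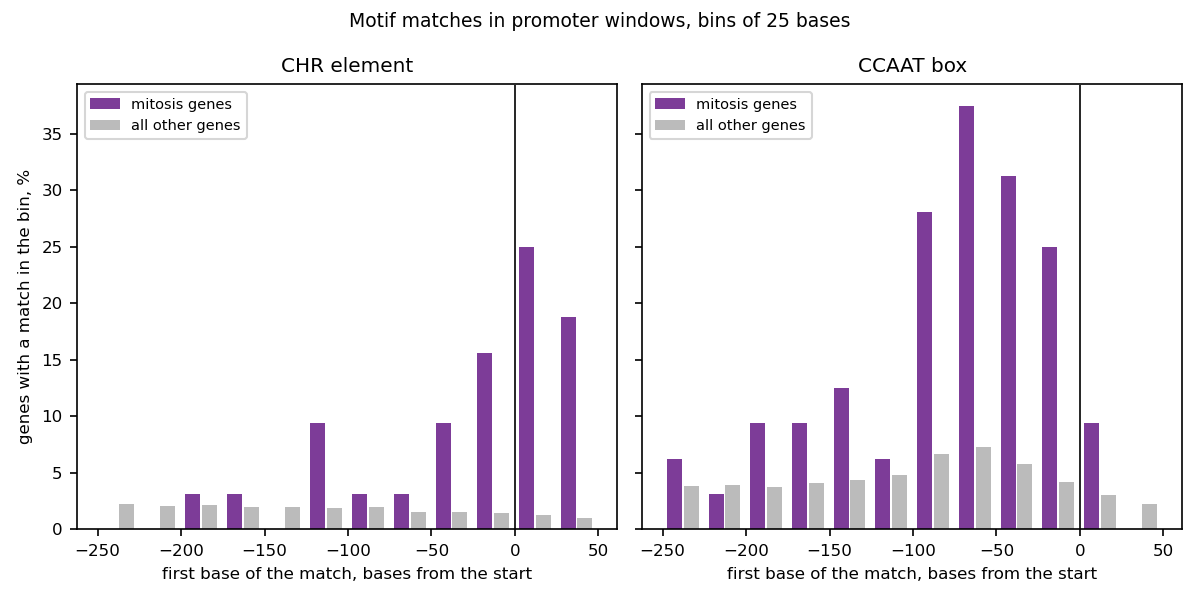
Share of promoter windows with a match to the CHR element (left) or the CCAAT box (right) by the position of its first base, in bins of 25 bases from the start of transcription, for the 32 matched mitosis genes and for all other genes. CHR matches of the mitosis genes are most frequent in the first 25 bases after the start, at 25% of genes against 1.22% of the others, and CCAAT boxes between 75 and 50 bases before it, at 37.5% against 7.24%.

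Levels differed between members far more than between groups. Averaged over the 7 tumors, Top2a, the topoisomerase that untangles sister chromatids, was the most abundant at 221 TPM, followed by Cdk1 at 203 TPM and Ube2c at 179 TPM. The least abundant were the checkpoint kinase gene Ttk at 14.3 TPM, the phosphatase gene Cdc25c at 16.4 TPM and the kinetochore gene Cenpf at 17.1 TPM. The highest of these averages was 15.4 times the lowest, and the median over the 38 members was 62.0 TPM. No member had a zero in any library.

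**Figure D3:**
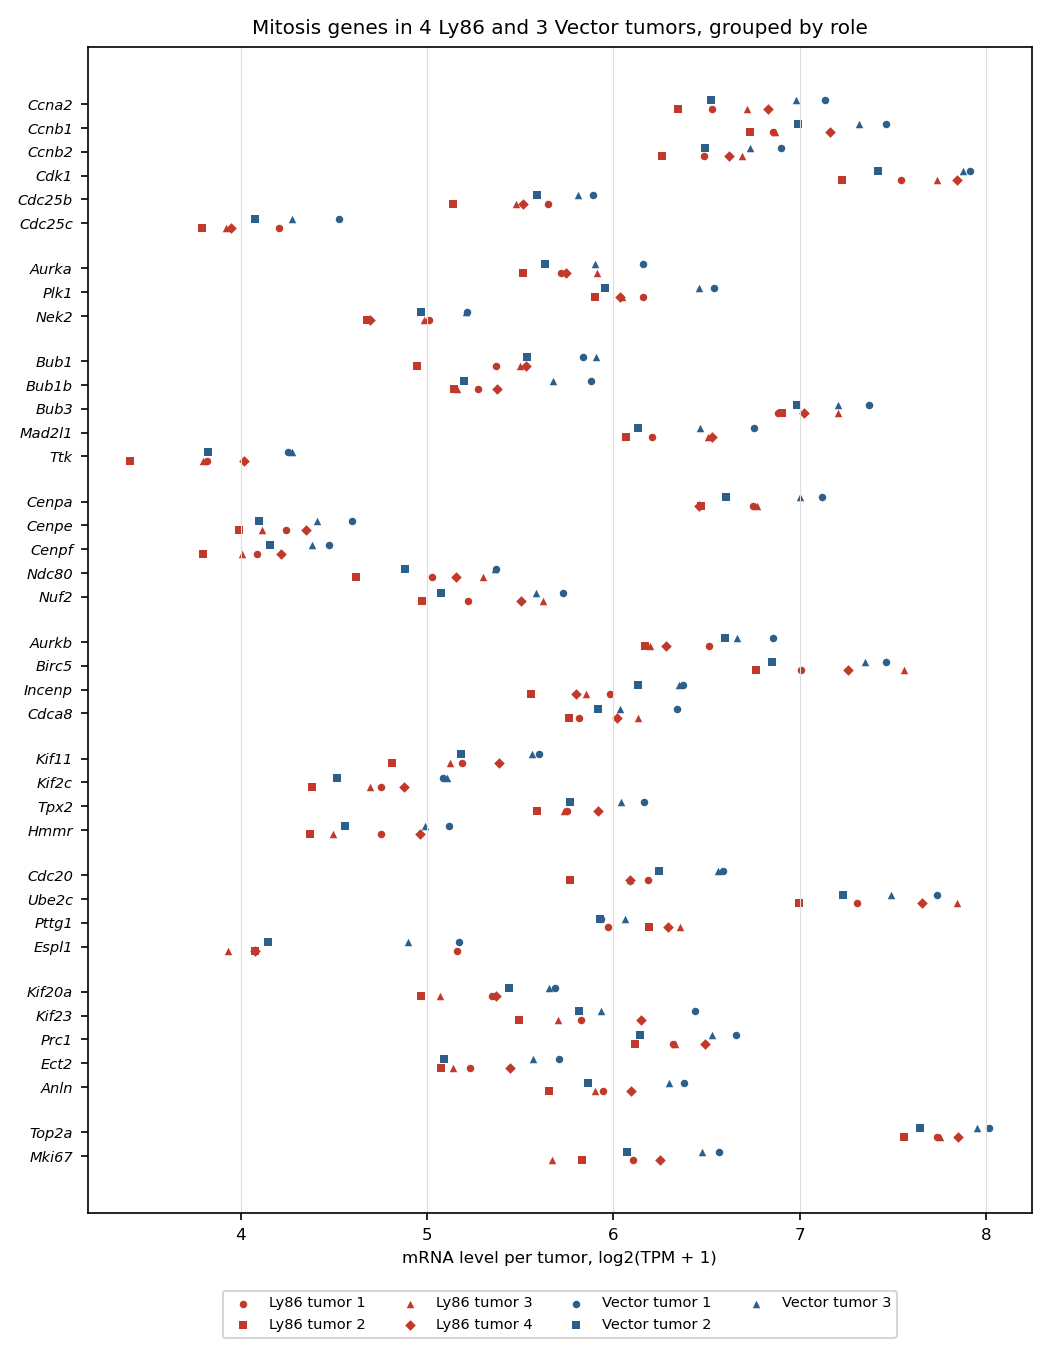
mRNA level of each mitosis gene in log2(TPM + 1) in every tumor, grouped by role, with Ly86 tumors in red and Vector tumors in blue. Vector tumor 1 is the highest of the 7 tumors in 32 of the 38 genes and Ly86 tumor 2 the lowest in 33.

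The genes that start mitosis were all on the lower side in the Ly86 tumors, with a median difference of -0.30 over 6 cyclin, Cdk1 and phosphatase genes. Ccnb1, which encodes cyclin B1, the main partner of Cdk1, stood at 6.86, 6.73, 6.87 and 7.16 log2(TPM + 1) in Ly86 tumors 1 to 4 and 7.46, 6.99 and 7.32 in Vector tumors 1 to 3. Ly86 tumor 4 lay above Vector tumor 2, and the other Ly86 tumors lay below every Vector tumor. The difference was -0.35 (SE 0.15, limma adjusted p = 0.455). Cdk1 itself overlapped more, at 7.54, 7.23, 7.74 and 7.84 against 7.91, 7.42 and 7.88 in the same order of tumors. Its difference of -0.15 had a 95% interval of -0.56 to 0.26. The phosphatases that switch Cdk1 on are encoded by Cdc25b and Cdc25c. Cdc25b stood at 5.65, 5.14, 5.48 and 5.52 against 5.89, 5.59 and 5.81, where only Ly86 tumor 1 reached above Vector tumor 2, and differed by -0.32 (SE 0.14). Cdc25c stood at 4.20, 3.79, 3.92 and 3.95 against 4.53, 4.07 and 4.28 and differed by -0.33 (SE 0.16). Ccna2 and Ccnb2, for cyclins A2 and B2, differed by -0.27 and -0.19. 

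Among the entry and centrosome kinases, Plk1 differed by -0.28, Nek2 by -0.29 and Aurka by -0.17. Nek2, whose product separates the centrosomes, stood at 5.01, 4.68, 4.99 and 4.69 against 5.21, 4.97 and 5.21. Vector tumors 1 and 3 lay above all Ly86 tumors, while Vector tumor 2 lay among them. Plk1, for a kinase that acts from entry to cytokinesis, showed the same order at 6.16, 5.90, 6.05 and 6.04 against 6.54, 5.95 and 6.46, with Vector tumor 2 below 3 of the 4 Ly86 tumors.

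The spindle checkpoint genes were lower in 5 of 5 cases with a median difference of -0.34. Bub1, which encodes the kinase that recruits the other checkpoint proteins to kinetochores, stood at 5.37, 4.95, 5.50 and 5.53 log2(TPM + 1) in Ly86 tumors 1 to 4 and 5.84, 5.54 and 5.91 in Vector tumors 1 to 3. By tumor the groups did not overlap, though Ly86 tumor 4 and Vector tumor 2 were nearly level. The first piece of Vector tumor 2, at 5.27, lay below the first piece of Ly86 tumor 1, at 5.45. The difference was -0.42 (SE 0.17, limma adjusted p = 0.453). Bub1b, for its partner BubR1, differed by -0.34 at 5.28, 5.14, 5.16 and 5.38 against 5.88, 5.20 and 5.68. The checkpoint kinase gene Ttk differed by -0.36 (SE 0.19) and Bub3, the adaptor of both Bub proteins, by -0.18 (SE 0.13). Mad2l1, for the protein that blocks Cdc20, overlapped between the groups, with -0.12 (95% interval -0.53 to 0.28), and turned to 0.028 without Vector tumor 1.

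Centromere and kinetochore genes had a median difference of -0.19. Cenpf, whose product sits at the outer kinetochore, stood at 4.09, 3.80, 4.01 and 4.22 against 4.47, 4.16 and 4.38, with Ly86 tumor 4 above Vector tumor 2, and differed by -0.31 (SE 0.14). Cenpa, for the histone that marks the centromere, differed by -0.30 and the kinesin gene Cenpe by -0.19. Ndc80 and Nuf2, partners in the complex that grips microtubules, differed by -0.18 (SE 0.19) and -0.13 (SE 0.21), and Nuf2 came to 0.0017 without Vector tumor 1.

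The chromosomal passenger complex, which corrects wrong attachments and later guides cytokinesis, had differences from -0.49 to -0.074 among its 4 members. Incenp, its scaffold, stood at 5.98, 5.56, 5.85 and 5.80 log2(TPM + 1) in Ly86 tumors 1 to 4 and 6.38, 6.13 and 6.35 in Vector tumors 1 to 3. No Ly86 tumor reached the lowest Vector tumor, and an exact two-sided permutation test gave p = 0.0286, the smallest that the 35 assignments of 7 tumors allow. Among single libraries, the first piece of Ly86 tumor 1, at 6.16, lay above the second piece of Vector tumor 2, at 6.02. The difference of -0.49 (SE 0.13, limma adjusted p = 0.437) had the smallest p of all 38 members. Aurkb, the kinase of the complex, stood at 6.51, 6.17, 6.20 and 6.28 against 6.86, 6.60 and 6.66 and differed by -0.42 (SE 0.12, limma adjusted p = 0.437). Its closest pair across the groups was Ly86 tumor 1 and Vector tumor 2, whose first pieces crossed at 6.66 and 6.47. Birc5, which encodes survivin and belongs to the same complex, stood at 7.01, 6.77, 7.56 and 7.26 against 7.46, 6.85 and 7.35. Ly86 tumor 3 was the highest of all tumors there, and the difference was -0.074 (95% interval -0.57 to 0.42), turning to 0.053 without Ly86 tumor 2 and 0.047 without Vector tumor 1. Cdca8, for borealin, differed by -0.17 (SE 0.14). The differences of Incenp and Birc5 were not tested against each other.

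Spindle motors and assembly factors lay close together, between -0.32 and -0.23. Kif11, for the motor that pushes the poles apart, stood at 5.19, 4.82, 5.12 and 5.39 against 5.60, 5.18 and 5.57 and differed by -0.32 (SE 0.17). Tpx2, which activates Aurora A on the spindle, differed by -0.24, Hmmr, for a spindle protein that also binds hyaluronan, by -0.24 and Kif2c, for a kinesin that takes microtubules apart, by -0.23. In each of these 4 genes Vector tumors 1 and 3 lay above every Ly86 tumor and Vector tumor 2 lay among them.

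The genes for exit from mitosis had differences of both signs. Cdc20, the activator of the anaphase-promoting complex, stood at 6.19, 5.77, 6.09 and 6.09 log2(TPM + 1) in Ly86 tumors 1 to 4 and 6.59, 6.25 and 6.56 in Vector tumors 1 to 3. Every Ly86 tumor lay below every Vector tumor (exact two-sided permutation p = 0.0286, the smallest possible), with a difference of -0.43 (SE 0.14, limma adjusted p = 0.437). The first pieces of Ly86 tumor 1 and Vector tumor 2 crossed, at 6.45 and 6.01. Ube2c, for the ubiquitin-conjugating enzyme that works with that complex, stood at 7.31, 6.997, 7.85 and 7.66 against 7.74, 7.23 and 7.49. Ly86 tumor 3 was the highest and Ly86 tumor 2 the lowest of all tumors, and the difference of -0.036 had a 95% interval of -0.53 to 0.46, with a sign that turned without Ly86 tumor 1 (0.012), Ly86 tumor 2 (0.12) or Vector tumor 1 (0.089).

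Pttg1, for securin, the inhibitor of separase, was the 1 member with a higher mean in the Ly86 tumors. It stood at 5.97, 6.19, 6.36 and 6.30 log2(TPM + 1) in Ly86 tumors 1 to 4 and 5.93, 5.93 and 6.07 in Vector tumors 1 to 3. Ly86 tumors 2, 3 and 4 lay above every Vector tumor, while Ly86 tumor 1 lay between Vector tumors 1 and 3. The difference was 0.23 (SE 0.12, limma adjusted p = 0.514) and stayed between 0.12 and 0.31 over all 23 alternative settings. Espl1, for separase itself, stood at 5.16, 4.08, 3.93 and 4.08 against 5.17, 4.15 and 4.90. Both groups held high and low tumors, with Ly86 tumor 1 beside Vector tumors 1 and 3, and its difference of -0.43 had the largest SE of the members, 0.35. 

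**Figure D4:**
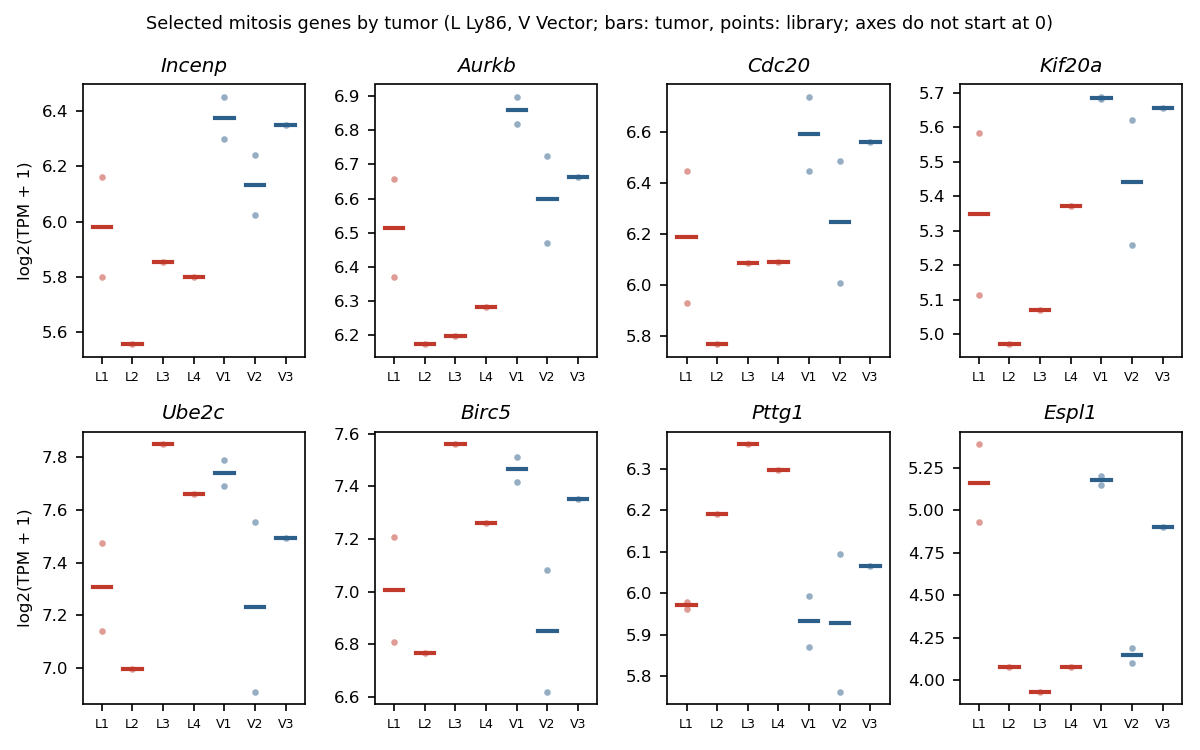
Levels of 8 mitosis genes in log2(TPM + 1), with bars for tumors and points for libraries, Ly86 in red and Vector in blue. In the upper row no Ly86 bar reaches the lowest Vector bar, though points of the groups overlap there. In the lower row Ube2c and Birc5 overlap, Pttg1 is higher in Ly86 tumors 2 to 4, and Espl1 splits each group.

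Midzone and cytokinesis genes were lower in 5 of 5 cases with a median of -0.27. Kif20a, for the kinesin that carries the passenger complex to the midzone, stood at 5.35, 4.97, 5.07 and 5.37 log2(TPM + 1) in Ly86 tumors 1 to 4 and 5.69, 5.44 and 5.66 in Vector tumors 1 to 3. The groups did not overlap by tumor, though the first pieces of Ly86 tumor 1 and Vector tumor 2 crossed, at 5.58 and 5.26. The difference was -0.40 (SE 0.14, limma adjusted p = 0.437). Anln, for the ring protein anillin, differed by -0.28, Kif23, a motor of the centralspindlin complex, by -0.27, and Ect2, which switches on the GTPase of the contractile ring, by -0.24. Prc1, the bundler of midzone microtubules, differed by -0.13 (95% interval -0.47 to 0.21) and came to 0.0091 with first pieces alone.

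The common marks of proliferation differed in size. Mki67, for the antigen Ki-67 that coats mitotic chromosomes, stood at 6.11, 5.83, 5.67 and 6.25 log2(TPM + 1) in Ly86 tumors 1 to 4 and 6.57, 6.07 and 6.48 in Vector tumors 1 to 3. Ly86 tumors 1 and 4 lay above Vector tumor 2, and the difference was -0.41 (SE 0.18, limma adjusted p = 0.464). Top2a stood at 7.74, 7.56, 7.75 and 7.85 against 8.02, 7.65 and 7.95, a difference of -0.15 (95% interval -0.42 to 0.13).

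The same tumors stood high or low across nearly all members. Vector tumor 1 was the highest tumor in 32 of 38 members and Ly86 tumor 2 the lowest in 33. Vector tumors 1 and 3 both lay above every Ly86 tumor in 29 members. Vector tumor 2 lay above every Ly86 tumor in 5 members and above the mean of the Ly86 tumors in only 15. The mean of the members was 5.79, 5.50, 5.79 and 5.86 log2(TPM + 1) in Ly86 tumors 1 to 4 and 6.19, 5.72 and 6.06 in Vector tumors 1 to 3. The means overlapped, since Vector tumor 2 lay below Ly86 tumors 1, 3 and 4.

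Pieces of 1 tumor differed by more than the groups in Vector tumor 2 and Ly86 tumor 1 and by less in Vector tumor 1. In Vector tumor 2 the members averaged 5.53 in the first piece and 5.91 in the second, and 37 of 38 were higher in the second. In Ly86 tumor 1 they averaged 5.93 and 5.65, and 37 of 38 were higher in the first, all but Espl1. In Vector tumor 1 they averaged 6.12 and 6.25. The gaps between the means of the pieces, second minus first, were 0.39 in Vector tumor 2, -0.29 in Ly86 tumor 1 and 0.12 in Vector tumor 1, beside -0.25 between the groups.

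Markers of other cells varied as well, and not all in 1 direction. The 16 leukocyte and macrophage markers averaged 8.20 log2(TPM + 1) in the first piece of Vector tumor 2, where mitosis genes were low, and 4.54 in the second. They averaged 6.61 and 7.59 in the pieces of Ly86 tumor 1, again higher where the mitosis genes were lower, and 4.27 and 4.81 in those of Vector tumor 1, where both were higher in the second piece. Other lists differed between pieces as well. Fibroblast markers averaged 7.21 and 2.60 in the pieces of Vector tumor 2, and keratinocyte markers 5.54 and 0.27. In Ly86 tumor 1 keratinocyte markers averaged 7.06 and 2.97, and skeletal muscle markers 1.48 and 6.04. Between the groups, 16 of 16 leukocyte and macrophage markers averaged higher in the Ly86 tumors. Their summed level was 3141 to 4054 TPM in Ly86 tumors and 673 to 4079 TPM in Vector tumors, none of them at 0. All 12 fibroblast markers averaged higher too, with sums of 1033 to 2895 TPM and 325 to 2583 TPM, none at 0. All 13 tested T and NK cell markers of 15 averaged higher, with sums of 104 to 213 TPM and 15.8 to 202 TPM, and Ncr1 was at 0 in at least 1 library. All 4 tested B and plasma cell markers of 8 also averaged higher. By contrast, all 10 keratinocyte markers, all 9 tested skeletal muscle markers of 10 and all 4 tested erythroid markers of 7 averaged lower in the Ly86 tumors. Of 10 endothelial markers 6 averaged lower, with a median difference of -0.036. Sums for keratinocyte markers were 3.67 to 1545 TPM in Ly86 and 30.8 to 420 TPM in Vector tumors, and those for skeletal muscle markers 4.71 to 581 and 170 to 185 TPM. Dividing leukocytes express mitosis genes as well. In bulk tumor RNA, fewer dividing cells and less of these mRNAs per cell cannot be told apart, and the part of other cells in the difference was not tested.

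Pigment cell lineage genes differed less between the groups, with 9 of 19 lower and a median difference of 0.01. Their summed level was 15738 to 22961 TPM in Ly86 tumors and 16489 to 19926 TPM in Vector tumors. Scaled to the mean of these genes in each tumor, the mean difference of the mitosis genes was -0.25, with 37 of 38 lower against 55.3% of all tested genes. On that scale limma listed 1 member and 1.73% of all tested genes as lower at an unadjusted p under 0.05, and every Ly86 tumor lay below every Vector tumor in 9 members and 3.48% of all tested genes. Ly86 tumor 2 had the highest mean of the pigment genes, 8.18, and the lowest mean of the mitosis genes. The pieces of Vector tumor 2 ran the other way. Its first piece had the lowest pigment mean of the 10 libraries, 7.42 against 8.02 in the second, with summed levels of 11287 and 21692 TPM, and also the lowest mitosis mean of the Vector libraries.

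**Figure D5:**
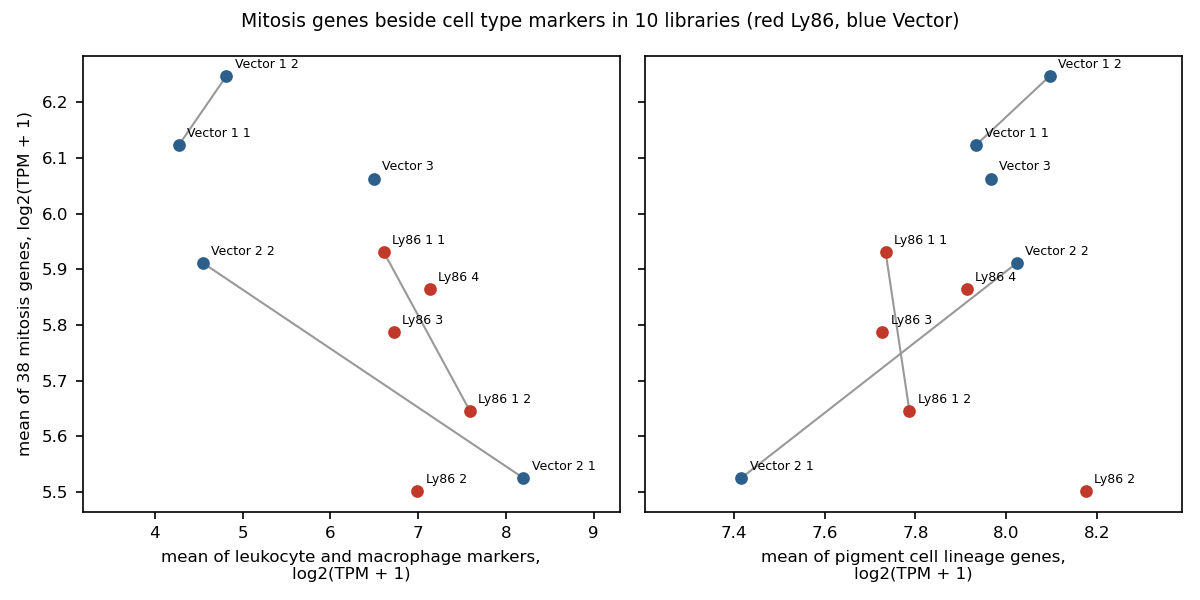
Mean of the 38 mitosis genes in each of the 10 libraries, in log2(TPM + 1), against the mean of 16 leukocyte and macrophage markers (left) and 19 pigment cell lineage genes (right), with lines joining pieces of 1 tumor. The first piece of Vector tumor 2 sits lowest among Vector libraries and highest for leukocyte markers, and Ly86 tumor 2 combines the highest pigment mean with the lowest mitosis mean.

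Other genes of mitosis were mostly lower as well. Of 96 further mitosis genes 91 averaged lower and 5 higher in the Ly86 tumors, with a median of -0.24. At an unadjusted p under 0.05 limma listed 23 lower and 0 higher, and in 15 every Ly86 tumor lay below every Vector tumor. Over all tested genes these shares were 4.97% lower, 5.78% higher and 5.75% without overlap on the lower side. The smallest p belonged to Spag5, for the spindle protein astrin, at -0.50 (SE 0.12), Ncapd2, a condensin subunit that compacts chromosomes, at -0.42 (SE 0.11), Stil, needed to build centrioles, at -0.58 (SE 0.16), and the minus-end motor gene Kifc1 at -0.41 (SE 0.12). Each had a limma adjusted p of 0.437. The 5 on the higher side were Cenpl, Anapc11, Cenpk, Oip5 and Cdc23, at most 0.19 log2 units.

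The factors that act on mitosis gene promoters were lower in 15 of 18 cases, with a median of -0.16. Mybl2, which encodes B-Myb, stood at 4.36, 4.18, 3.95 and 4.22 in the Ly86 tumors and 4.78, 4.55 and 4.67 in the Vector tumors. Its difference was -0.49 (SE 0.13), and that of E2f1, which acts earlier in the cycle, -0.34 (SE 0.11), each with a limma adjusted p of 0.437. Foxm1, named for its role and not for its value, differed by -0.35 (SE 0.19). Rb1, the retinoblastoma repressor, was on the higher side at 0.39 (SE 0.19), as were the MuvB genes Lin37 and Lin52.

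Listed regulators of mitotic entry and exit, brakes among them, were lower in 10 of 16 cases (62.5%), near the 56.2% of all tested genes, with a median of -0.12. Wee1 and Pkmyt1, the kinases that hold Cdk1 inactive, differed by -0.32 (SE 0.13) and -0.37 (SE 0.15), in the same direction as Cdk1 and its activators. Arpp19, which is no brake since its product inhibits the phosphatase that opposes Cdk1, differed by -0.54 (SE 0.22). On the higher side were 6 genes of the list, among them Gadd45a at 0.42 (SE 0.21) and Ensa at 0.18 (SE 0.10). Limma adjusted p was 0.455 for Arpp19 and Wee1 and 0.453 for Pkmyt1. Of DNA replication genes 38 of 38 averaged lower, with a median of -0.28, and limma listed 16 of them as lower at an unadjusted p under 0.05, against 7 of 38 mitosis genes and 4.97% of all tested genes. Cdt1, which loads the replicative helicase, differed by -0.48 (SE 0.10), with a limma adjusted p of 0.437. Whether replication and mitosis genes differ from each other was not tested.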

How the data were processed

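RNA was sequenced from 10 libraries of 7 B16F10 tumors, 4 Ly86 and 3 Vector. The submitters' processing notes name STAR 2.7.10b, RSEM 1.3.3 and the mouse build mm39, with no further steps given. The deposited values are log2(TPM + 1). This scale was read from the values: 2 to the power of a value, minus 1, was a multiple of 0.01 TPM, within 1e-04 hundredths, for 99.9% of values, and summed to between 994679 and 996446 per library. The handling of repeated symbols, and of reads shared with pseudogene copies, is not stated there.

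Log2 values of pieces were averaged per tumor. Genes with a mean of at least 1 TPM, 14556 in all, entered limma 3.58.1 in R 4.3.3 (lmFit, eBayes with trend) with the group as the only term and Benjamini-Hochberg adjustment at 0.05. The planned test assumed TPM, and the deposited log2 scale needed no other. The fit was tested on simulated data. It recovered 56.1%, 83.6% and 97.0% of genes given log2 changes of 1, 2 and 4, with 7 false calls. Changes as small as those of the members were not simulated, so its power at their size is not known. A single value was also tested by an exact permutation test over 35 assignments. Lists and means over members got no p-value.

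The members, gene lists and tests were chosen with earlier results of these data known. Genes named with values were Mki67, Top2a, Cdk1 and Ccnb1, the 10 members of smallest p, the 3 most and least abundant, any member higher in Ly86 tumors, the smallest and largest p of each role group, and 2 to 4 genes of smallest p in each further list. Some other genes were named to complete their role group or to show the higher side of a list. The 23 alternatives changed the pseudocount (0.1, 0.5) and the filter (none, 5 TPM), or used median-of-ratios and quantile scaling, scaling to pigment genes, 5 ways of handling pieces, 3 variance models, a block on the tumor number or all tumors but 1. Promoter windows came from RefSeq (GRCm38.p6), and exons from GENCODE vM21. No coordinates on mm39 are printed. Python 3.11.15 with matplotlib 3.10.9 drew the figures.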

Additional observations from a re-analysis of the deposited data

Results flagged for a closer look

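Espl1 in the Ly86 tumors was set apart by 1 tumor. The gap of Ly86 tumor 1, at 5.16 log2(TPM + 1), to the nearest of the other 3 Ly86 tumors, which lay between 3.93 and 4.08, was 0.881 of the range of the group, above Dixon's critical value of 0.83 for 4 samples. Chance marks about 1 in 20 groups in this way, and 39 were examined. The 3-tumor Vector group is too small for this rule.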

How the results depend on the processing

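The 37 members on the lower side were 33 with only the first pieces, 33 to 37 when a tumor was left out and 37 under every other alternative run. Counts of members at an unadjusted p under 0.05 in limma follow, with the share of all tested genes listed as lower in brackets. They were 7 as reported (4.97%), 1 scaled to pigment genes (1.73%), and 1 (1.32%) and 23 (12%) with first and second pieces only. With the first piece of Vector tumor 2 left out 19 were listed (9.47%), without the variance trend 4 (4.24%) and with array weights 29 (21.2%). The tumor number as a replicate block gave 12 (1.95%). Leaving out a tumor gave 2 to 22 (1.72% to 9.23%). All listed members were lower, except 1 without Ly86 tumor 1. Members without overlap were 5 as reported (5.75% of all tested genes on the lower side), 9 scaled to pigment genes (3.48%) and 0 over 10 libraries (0.9%). They were 1 and 15 with first and second pieces only (1.95% and 12.5%) and 15 with the first piece of Vector tumor 2 left out (10.4%). Leaving out a tumor gave 5 to 29 in either direction, beside 6.97% to 19.2% of all tested genes on the lower side and a further 5.78% to 10.4% on the higher side. Members past the adjusted threshold were 15 with array weights and 0 in the other 22 alternatives. Over all genes, called genes were 0 as reported, 1 and 6 with first and second pieces only, 1 with that piece of Vector tumor 2 left out, 1832 with array weights and 0 to 2 when a tumor was left out. Genes at an unadjusted p under 0.05, 1565 as reported, were 852 scaled to pigment genes, 318 and 3319 with first and second pieces only, 3012 with that piece of Vector tumor 2 left out, 4887 with array weights, 645 under the replicate block and 872 to 2587 when a tumor was left out. The cause of these moves was not tested. Signs turned for Mad2l1 (0.035), Birc5 (0.069), Ube2c (0.13) and Prc1 (0.0091) with first pieces only, and when a tumor was left out the differences ranged from -0.28 to 0.028 for Mad2l1, -0.33 to 0.0017 for Nuf2, -0.26 to 0.053 for Birc5 and -0.17 to 0.12 for Ube2c. Whether the tumor numbers paired the tumors was not tested. Over all tested genes the deviations of same-numbered tumors from their group means correlated at -0.17, -0.11 and -0.31. Over every pair of a Ly86 and a Vector tumor these correlations ran from -0.31 to 0.35. The array weight fit stopped before it converged. Depth is unknown, so its limits could not be set.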

Other observations

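Espl1, the separase gene, was the 1 member with a wide gap between tumors that crossed the groups, a pattern picked out after its values were seen. It stood at 4.93 and 5.39 log2(TPM + 1) in the pieces of Ly86 tumor 1, 5.20 and 5.15 in those of Vector tumor 1 and 4.90 in Vector tumor 3. It stood at 4.08, 3.93 and 4.08 in Ly86 tumors 2, 3 and 4 and at 4.10 and 4.19 in the pieces of Vector tumor 2. Pieces of 1 tumor thus fell on the same side of a gap of 0.75 log2 units between tumors, also in Vector tumor 2, whose pieces differed in nearly every other member. The same split of tumors left a gap of at most 0.13 in any other member. The genes next to Espl1 in the RefSeq annotation of GRCm38.p6 did not share it, with Mfsd5 between 7.10 and 7.52 and Pfdn5 between 7.83 and 8.26 log2(TPM + 1) over the 7 tumors.

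Transcript length, taken as the longest coding transcript in GENCODE vM21, was set beside the differences. Across the 38 members Spearman's rho between length and difference was -0.11, and across 12617 tested genes it was -0.17, given as a description since genes are not independent. The 8 members under 2000 bases had a median difference of -0.24 and the 11 of at least 4000 bases one of -0.24.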
